A study of Homo sapiens with 4 samples.

Results

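The amino acid transporter genes of the ATF4 program, 10 in number, were followed in A549 cells, a human lung adenocarcinoma line, after transduction with a virus that expresses FCN3, a secreted lectin. They are SLC7A1, SLC7A5, SLC7A11, SLC3A2, SLC1A4, SLC1A5, SLC38A1, SLC38A2, SLC6A9 and SLC43A1, chosen by symbol, and all 10 were found among the 25192 genes of the deposited tables. The design has 4 libraries, 2 of cells that received the control virus (EV, for empty virus) and 2 of cells that received the FCN3 virus, with RNA taken 48 h after infection. Both viruses were retroviruses made from a vector that also carries GFP, the control expressed GFP alone, and the FCN3 insert carried a V5 tag. All libraries come from transduced cultures of 1 cell line. The labels do not say whether the replicates were separate cultures or what a shared replicate number stands for. The p-values therefore measure only the spread between these libraries, in part borrowed across all genes.

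When unfolded protein collects in the endoplasmic reticulum (ER), or when amino acids run short, kinases phosphorylate the translation factor eIF2alpha, bulk protein synthesis slows, and translation of the transcription factor ATF4 increases. ATF4 binds composite C/EBP-ATF response elements (CARE) and switches on genes for amino acid import, amino acid synthesis and tRNA charging. The transporters of this program work together. SLC3A2 is the glycoprotein heavy chain that carries light chains such as SLC7A5 and SLC7A11 to the cell surface, SLC7A5 exchanges glutamine for large neutral amino acids such as leucine, and SLC7A11 exchanges glutamate for cystine, the source of cysteine for glutathione. A549 cells carry a KEAP1 mutation that leaves the transcription factor NRF2 active, and SLC7A11 is also an NRF2 target.

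The promoter letters are shown first because the CARE sequence is the element that ATF4 is known to bind. RefSeq promoter windows on GRCh38.p14, each running from 250 bases before to 50 bases after an annotated start, were searched on both strands for TGATGNAA, the CARE core. 9 of the 10 members had windows (all but SLC7A11), 16 windows in all, since some genes have several starts. A match lay in 1 window each of 5 members, SLC7A1, SLC1A4, SLC1A5, SLC38A1 and SLC3A2. Of all 35116 RefSeq windows, 3.62% held one, and among all 27305 genes 4.46% had at least 1 window that did. SLC7A1, SLC1A4, SLC1A5 and SLC38A1 were higher with the FCN3 virus, but SLC3A2 was not (log2 fold change -0.07 in edgeR without the block). No match lay in the windows of SLC6A9 and SLC38A2, which were higher (1.45 and 0.54), or of SLC7A5 and SLC43A1, which were not. A link between matches and changes was not tested. The 30 bases around each match follow, 5′ to 3′ on the strand of the gene, with the match in capitals. Where the element lies on the opposite strand its reverse complement is seen.
SLC7A1: gggcgcactgcTGATGAAAcctggcgccgg
SLC38A1: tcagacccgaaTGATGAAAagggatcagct
SLC1A5: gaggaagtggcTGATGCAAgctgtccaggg
SLC1A4: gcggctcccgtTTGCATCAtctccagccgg
SLC3A2: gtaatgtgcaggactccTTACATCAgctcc

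Counted from the annotated start as position 1, with bases before it negative, the matches ran from 8 to 15 in SLC7A1 (chr13:29595663-29595692 for the 30 bases, minus strand), from -4 to 4 of 1 of the 2 starts of SLC38A1 (chr12:46266502-46266531, minus strand), from -97 to -90 of 1 of the 3 starts of SLC1A5 (chr19:46784893-46784922, minus strand), from -7 to 1 of 1 of the 2 starts of SLC1A4 (chr2:64989381-64989410, plus strand) and from 38 to 45 of 1 of the 3 starts of SLC3A2 (chr11:62881719-62881748, plus strand). SLC7A1 and SLC38A1 thus held the same 8 letters, TGATGAAA, and SLC1A5 and SLC1A4 both held TGATGCAA on opposite strands. Genes of the ATF4 program outside transport served for comparison. Of 24 such genes with windows 6 held a match, and the one in ASNS, the asparagine synthetase gene from which this kind of element is well known, was again TGATGAAA, at -68 to -61 (chr7:97872458-97872487, minus strand), while CHAC1, a glutathione-degrading enzyme, held TGATGCAA on the opposite strand at -209 to -202 (chr15:40953251-40953280, plus strand).
ASNS: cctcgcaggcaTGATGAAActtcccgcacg
CHAC1: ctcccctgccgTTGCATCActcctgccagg

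The antioxidant response element (ARE) that NRF2 is known to bind was searched as TGACNNNGC, which 13.3% of all windows hold. A match lay in a window of 4 of the 9 members, against 16.1% of all genes, and 2 of these are shown because their genes, SLC3A2 and SLC7A5, were the abundant members that were not higher with the FCN3 virus. The SLC3A2 match ran from -37 to -29 of the same start as its CARE match (30 bases at chr11:62881652-62881681, plus strand), and the SLC7A5 match from -2 to 7 (chr16:87869490-87869519, minus strand). The other 2 were in SLC7A1 and SLC1A5, both of them higher with the FCN3 virus (log2 fold changes of 0.80 and 0.71 in edgeR without the block).
SLC3A2: cgagggtgggTGACTCAGCgtcctccttcc
SLC7A5: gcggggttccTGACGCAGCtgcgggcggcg

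No member window held the elements of the other branches of the ER stress response as searched, TGACGTGG (UPRE, in 0.729% of all windows) or the ER stress element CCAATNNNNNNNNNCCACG (ERSE, in 0.0769%). A match is only a run of letters in the reference, and these data hold no measurement of binding.

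The libraries held 35733735 and 16353554 expected counts (EV replicates 1 and 2) and 35031565 and 20136068 (FCN3 replicates 1 and 2). FCN3 had 1 and 0 expected counts in the EV libraries, against 2.06% and 2.23% of all counts with the FCN3 virus. The keratin genes KRT7, KRT8 and KRT18 each lay between 1154 and 4521 CPM (counts scaled to library size, here without TMM) in every library, as an epithelial line would have, whereas KRT19 stood at 23.6 and 38.4 CPM with EV and at 65.2 and 73.5 with the FCN3 virus, EPCAM lay between 0.971 and 3.18 CPM and CDH1 between 8.93 and 24.9. PTPRC, CD3E, PECAM1 and DCN, some of the listed markers of leukocytes, endothelium and fibroblasts, were at 0 in all libraries but 1, in which PTPRC was at 0.0285 CPM. Over the lists, the 4 leukocyte markers summed to 33.2 to 34.7 CPM in EV cells and 48.5 to 60.4 with the FCN3 virus. Nearly all of this was CD68, a lysosomal protein gene. The 4 endothelial markers summed to 0 to 0.257 CPM and the 5 fibroblast markers to 9.42 to 27.8 CPM in both groups. Nearly all of the fibroblast sum was COL1A1, at 10.9 and 26.4 CPM with EV and 8.93 and 26.1 with the FCN3 virus. The part of these markers in the results was not tested.

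In EV cells the members spanned a wide range of abundance. On the TPM scale, which is per transcript length and so lets genes be compared, SLC7A5 was the highest at 1297 ± 165 TPM (SD, n = 2) and SLC43A1 the lowest at 2.59 ± 0.255 TPM. Next below SLC7A5 came SLC3A2 (974 ± 26.2), SLC1A5 (274 ± 3.79), SLC7A11 (76.1 ± 14.9), SLC38A2 (60.8 ± 9.19), SLC38A1 (58.8 ± 14.4), SLC7A1 (33.4 ± 2.53), SLC1A4 (10.3 ± 1.66) and SLC6A9 (4.03 ± 0.156), all in TPM with the SD over 2 libraries. SLC7A11, SLC38A2 and SLC38A1 overlapped with their neighbours in this order, and all other neighbours were apart in both libraries. With the FCN3 virus the order was the same, except that SLC38A1 (88.8 ± 11.8 TPM) stood before SLC38A2 (82.4 ± 11.5), whose ranges again overlapped.

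**Figure D1:**
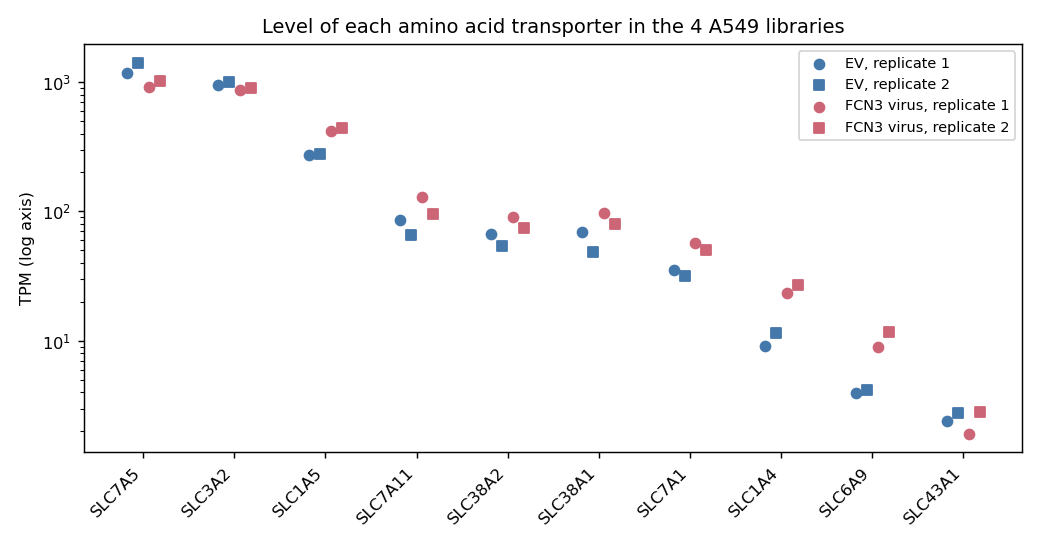
Level of the 10 transporters on the TPM scale (log axis) in each of the 4 libraries, ordered by the mean of the EV libraries, with circles for replicate 1 and squares for replicate 2. SLC7A5 and SLC3A2 lie near 1000 TPM in all libraries and are the abundant members with lower values under the FCN3 virus, while the points from SLC1A5 to SLC6A9 lie higher with the FCN3 virus than with EV.

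Cells given the FCN3 virus were compared with EV cells to see which of these transporters changed. In both FCN3 libraries 7 members were higher than in both EV libraries, SLC6A9, SLC1A4, SLC7A1, SLC1A5, SLC38A1, SLC7A11 and SLC38A2, by 1.46 to 2.74-fold. SLC7A5 and SLC3A2 were lower in both, and SLC43A1 overlapped. Among all 14099 genes tested, 28.0% were higher without overlap and 26.5% lower. The 7 higher and 2 lower of 10 members are read against those shares. The median log2 fold change over the members was 0.68, against 0.016 over all genes tested. The members, like the lists further on, were chosen with earlier results of these data known. The comparison with all genes is therefore a description and not an independent test. Fewer cells of a type and less RNA per cell cannot be told apart in such bulk samples.

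By the quasi-likelihood test of edgeR without a term for the replicate number, no member passed an FDR of 0.01, where the test called 0.738% of all genes as higher and 0.227% as lower. An unadjusted p under 0.05 was reached by 7 members, all of them higher with the FCN3 virus, where 13.6% of all genes were higher and 11.6% lower at that threshold. At an FDR of 0.05 the same test called 4 members as higher, SLC1A5, SLC1A4, SLC6A9 and SLC7A1, where 4.43% of all genes were called higher. DESeq2, the tool the study used, called 6 members as higher at 0.01 without the replicate number (all of the 7 but SLC38A2), against 4.43% called higher and 3.43% called lower of the 13317 genes to which it gave an adjusted p. With the replicate number as a block in edgeR, 7 members rose and 1, SLC7A5, fell at an FDR of 0.01, beside 19.1% of all genes called higher and 17.1% called lower. SLC3A2 and SLC43A1 passed in none of these tests.

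The size of each change differed by at most 0.027 on the log2 scale between the fits with and without the block, while its standard error differed. All 10 members were ordered alike between replicates 1 and 2 in the EV and the FCN3 libraries, 4 of them (SLC7A1, SLC7A11, SLC38A1 and SLC38A2) higher in replicate 1 of both groups and 6 higher in replicate 2 of both. With 4 libraries the fit without the block has 2 residual degrees of freedom a gene and the fit with it 1, and both borrow the spread from all genes. The very small p-values of the blocked fit thus rest mostly on this borrowed spread, not on that of the gene itself. The smallest two-sided p of an exact permutation test of 2 against 2 is 0.333, and none was run on single genes.

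**Figure D2:**
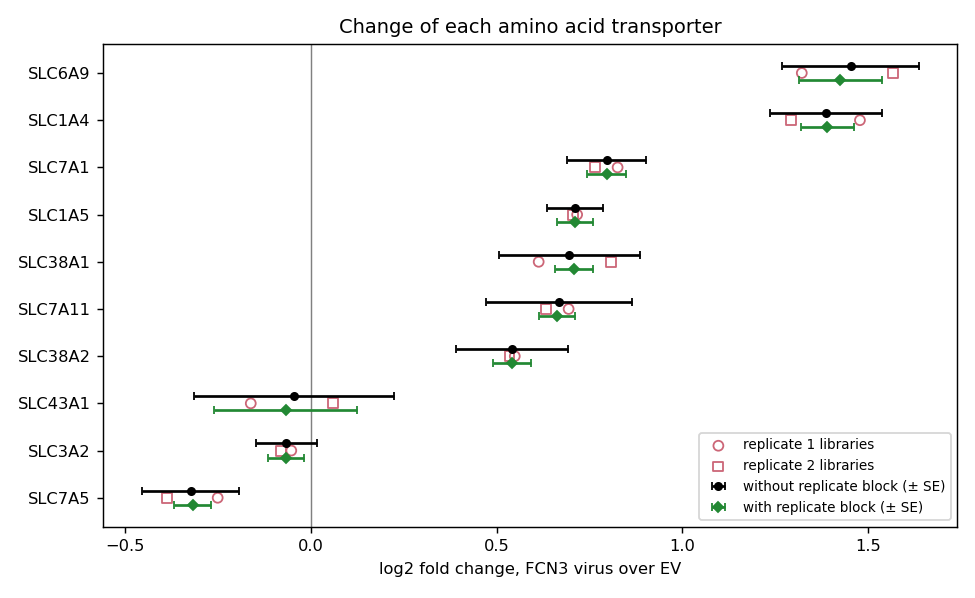
Log2 fold change of the 10 transporters with the FCN3 virus over EV, in edgeR without (black circles) and with (green diamonds) the replicate number as a block, with bars for 1 standard error, and the difference within replicate 1 (open circles) and within replicate 2 (open squares). SLC6A9 and SLC1A4 stand apart at about 1.4, 5 members lie between 0.54 and 0.80, and SLC3A2 and SLC7A5 lie below 0 in both fits. SLC43A1 is also below 0 in both fits, but its replicate 2 difference is above 0 (0.058).

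SLC6A9 and SLC1A4 had the largest changes. SLC6A9 encodes a sodium- and chloride-coupled glycine transporter and lies on chromosome 1 of GRCh37 (chr1:44457172-44497139, minus strand). It stood at 6.48 and 6.99 CPM (TMM-normalised) in EV replicates 1 and 2 and at 16.2 and 20.7 CPM in FCN3 replicates 1 and 2. Both FCN3 libraries were thus over 2 times the higher EV library. Its log2 fold change came to 1.45 (standard error, SE, 0.18, adjusted p = 0.0161 in edgeR without the block and 1.08e-15 in the fit with it, given from here on as blocked). It rests on at least 117 expected counts a library, and an exon of the gene shares 219 bases with CCDC24 on the opposite strand, a gene with 97 to 155 counts, so the value is uncertain if strand was not used in counting.

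SLC1A4 encodes an exchanger of alanine, serine, cysteine and threonine (chr2:65215611-65250999 of GRCh37, plus strand). Its values were 21.8 and 28.0 CPM with EV and 60.9 and 68.4 CPM with the FCN3 virus. The groups were far apart, since the lowest FCN3 value was above 2 times the highest EV value. Its log2 fold change came to 1.39 (SE 0.15, adjusted p = 0.012 in edgeR, blocked 3.92e-23). Without the block its adjusted p in edgeR was 0.00896 when EV replicate 1 was left out and 0.00258 when EV replicate 2 was left out, each with a lone EV library assumed to vary like the FCN3 libraries. It was 0.0133 without FCN3 replicate 1 and 0.0119 without FCN3 replicate 2.

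SLC1A5, the close relative of SLC1A4 that exchanges glutamine and other neutral amino acids (chr19:47278140-47291851, minus strand), gave the tightest values of the members. It stood at 323 and 329 CPM in EV cells and at 532 and 536 CPM with the FCN3 virus. Its replicates differed by far less than its groups did. This was a log2 fold change of 0.71 (SE 0.076, adjusted p = 0.0118 in edgeR, blocked 5.99e-18). Taken within replicate numbers, the difference was 0.72 for replicate 1 and 0.71 for replicate 2. It shares up to 780 exon bases with an unnamed lncRNA on the opposite strand, which was not analysed here, so its value is uncertain if strand was not used in counting.

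SLC7A1, the main importer of the cationic amino acids arginine and lysine (chr13:30083551-30169825, minus strand), stood at 138 and 125 CPM with EV and at 244 and 212 CPM with the FCN3 virus. Replicate 1 was the higher library in both groups, and the groups did not overlap. This made a log2 fold change of 0.80 (SE 0.11, adjusted p = 0.0183 in edgeR, blocked 1.25e-18).

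The SLC38 members are sodium-coupled importers of small neutral amino acids, glutamine and alanine among them, and both lie on the minus strand of chromosome 12. SLC38A1 (chr12:46576846-46663800) stood at 305 and 217 CPM with EV and at 467 and 380 CPM with the FCN3 virus. SLC38A2 (chr12:46751971-46766556), the member whose mRNA is the classic readout of amino acid shortage, stood at 173 and 141 CPM with EV and at 253 and 204 CPM with the FCN3 virus. In both genes replicate 1 was higher than replicate 2 by 0.29 to 0.49 on the log2 scale in each group, and the groups still did not overlap. Their log2 fold changes were 0.70 (SE 0.19, adjusted p = 0.094 in edgeR) and 0.54 (SE 0.15, adjusted p = 0.0987). With the block the standard errors were 0.051 and 0.052, and both rose in edgeR (adjusted p = 4.41e-17 and 6.69e-13).

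SLC7A11 (chr4:139085251-139163503, minus strand), the cystine-glutamate exchanger, stood at 448 and 342 CPM in EV cells and at 724 and 530 CPM with the FCN3 virus. Both FCN3 libraries were above both EV libraries, and replicate 1 was higher in each group. Its log2 fold change came to 0.67 (SE 0.20, adjusted p = 0.111 in edgeR, blocked 7.34e-17). Leaving out FCN3 replicate 1 gave 0.42 for this log2 fold change. Its antisense gene SLC7A11-AS1, which shares up to 691 exon bases with it, had only 5.01 to 27.1 expected counts a library, against 5725 to 24573 for SLC7A11.

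The heavy chain and the main light chain were not among the higher members. SLC7A5 (chr16:87863629-87903113, minus strand) stood at 2817 and 3405 CPM with EV and at 2367 and 2605 CPM with the FCN3 virus, so that both FCN3 libraries were below both EV libraries. Its log2 fold change came to -0.32 (SE 0.13, 95% interval -0.65 to 0.0051, adjusted p = 0.204 in edgeR). In the blocked fit it fell by 0.32 (log2, SE 0.050, adjusted p = 4.57e-07). Its copies SLC7A5P1 and SLC7A5P2 together held 0.0736% to 0.128% of its expected counts. The log2 fold change was -0.19 without EV replicate 2. Up to 271 exon bases are shared with an unnamed lncRNA on the opposite strand, with the same uncertainty as for SLC1A5. SLC3A2 (chr11:62623476-62656352, plus strand) stood at 974 and 1014 CPM with EV and at 939 and 959 CPM with the FCN3 virus. These differ by little more than the replicates do. Its log2 fold change came to -0.07 (SE 0.082, 95% interval -0.27 to 0.14, adjusted p = 0.668 in edgeR, blocked 0.261), so that an increase of SLC3A2 like those of the 7 higher members lies outside the interval.

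Set per heavy chain, the light chain mRNAs shifted in opposite directions. The TPM of SLC7A5 over that of SLC3A2 was 1.24 and 1.42 in EV replicates 1 and 2 and 1.05 and 1.13 in the FCN3 libraries. The TPM of SLC7A11 over that of SLC3A2 was 0.0906 and 0.066 with EV and 0.148 and 0.106 with the FCN3 virus. The groups did not overlap in either ratio. SLC7A5 stood 13.6 and 21.6 times above SLC7A11 in EV cells and 7.08 and 10.6 times above it with the FCN3 virus. It still made up 85.5% to 93.0% of the summed TPM of the 6 listed light chain partners in every library. Of the other partners, SLC7A6, an arginine-glutamine exchanger, had 24.5 to 31.9 TPM and a log2 fold change of -0.08 (95% interval -0.38 to 0.22), and SLC7A7, which also pairs with SLC3A2 in the transport of cationic amino acids, had 2.46 and 8.21 TPM with EV and 1.05 and 4.46 with the FCN3 virus. SLC7A7 thus differed more between replicate numbers than between groups (log2 fold change -0.89, SE 0.84, adjusted p = 0.568 in edgeR, blocked 1.56e-05). SLC7A8 and SLC7A10 had at most 5 counts in any library.

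**Figure D3:**
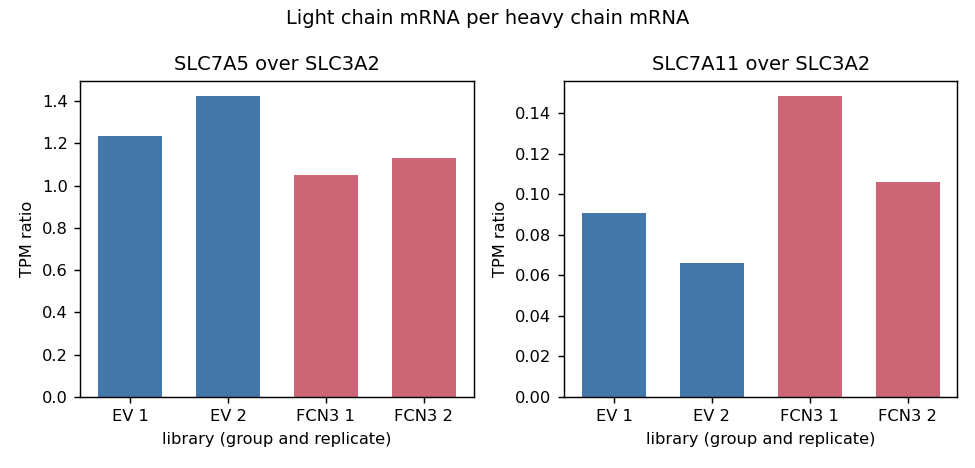
TPM of the light chains SLC7A5 (left) and SLC7A11 (right) divided by the TPM of their heavy chain SLC3A2, 1 bar for each of the 4 libraries, each axis starting at 0. The SLC7A5 ratio is 1.24 and 1.42 with EV and 1.05 and 1.13 with the FCN3 virus, while the SLC7A11 ratio is 0.0906 and 0.066 with EV and 0.148 and 0.106 with the FCN3 virus.

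SLC43A1 (chr11:57252007-57283253, minus strand), a facilitated carrier of branched-chain amino acids, stood at 2.94 and 3.52 CPM with EV and at 2.62 and 3.67 CPM with the FCN3 virus, and the groups overlapped. A log2 fold change of -0.05 was fitted (SE 0.27, 95% interval -0.72 to 0.63, adjusted p = 0.938 in edgeR, blocked 0.801). It had 59 to 107 expected counts a library, and its interval in the fit without the block includes a change of the size seen in SLC38A2.

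RSEM gives each gene a length weighted by the estimated shares of its transcripts, which shows shifts between transcripts that the counts do not. This length varied between libraries in 6 members. In 3 of them the groups did not overlap, each shorter with the FCN3 virus. For SLC1A5 it was 2355 and 2329 bases with EV and 2306 and 2235 bases with the FCN3 virus, a difference of the means of -71.8 bases or -3.07%. For SLC3A2 it was 2037 and 2025 bases against 1994 and 1990 (-1.94%), and for SLC1A4 it was 4566 and 4601 bases against 4562 and 4528 (-0.84%). The median size of this change over all genes whose length varied was 0.212%, and 36.2% of those genes did not overlap between the groups. Those without overlap and shorter with the FCN3 virus made up 19.6% of the genes whose length varied. These are estimates with no test, and an edgeR offset for effective length, added after seeing the data, gave SLC1A5 a log2 fold change of 0.76 and SLC3A2 one of -0.04.

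The rest of the ATF4 program was examined as a list of 30 genes outside transport, of which 29 were tested. ATF4 itself stood at 273 and 297 CPM with EV and 413 and 457 CPM with the FCN3 virus (a log2 fold change of 0.61, SE 0.094, adjusted p = 0.0255 in edgeR, blocked 2.28e-15). In edgeR 14 of the 29 rose at an FDR of 0.01 without the block and none fell (all genes, 0.738% and 0.227%). With the block 25 rose and 1 fell (all genes, 19.1% and 17.1%). The median log2 fold change of the list was 1.26. The largest changes were in DDIT3, a transcription factor of ER stress (4.35), CHAC1 (3.50) and ATF3, a stress transcription factor (3.001), with adjusted p between 4.03e-04 and 0.00503 in edgeR without the block. TRIB3, a pseudokinase that restrains ATF4, had a log2 fold change of 2.70 and ASNS one of 2.11. SLC6A9 and SLC1A4 were thus a little above the median of this list, and the 5 other higher members were below it. ATF5, a related transcription factor, was the gene that fell with the block (log2 fold change -0.53, adjusted p = 0.147 without the block and 5.73e-09 with it in edgeR), and ALDH18A1, an enzyme of proline synthesis, was at -0.02 (adjusted p = 0.922). This list was drawn up with results for several of its genes known.

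Other amino acid transporters of the cell surface were mostly silent in A549 cells, with 11 of 30 listed genes passing the filter on low counts. Of these 11 none passed in edgeR without the block at an FDR of 0.01. An unadjusted p under 0.05 was reached by 3, all higher (all genes, 13.6% higher and 11.6% lower). DESeq2 called 1 as higher, SLC6A6 (all genes, 4.43% higher). With the block 3 rose and 2 fell in edgeR (all genes, 19.1% and 17.1%), and the median log2 fold change without it was 0.16. SLC6A6, a taurine transporter, stood at 309 and 297 CPM with EV and at 406 and 408 CPM with the FCN3 virus (a log2 fold change of 0.43, SE 0.076, adjusted p = 0.037 in edgeR, blocked 2.68e-10). SLC6A15, a neutral amino acid transporter, stood at 1.98 and 1.73 CPM with EV and at 3.27 and 3.72 CPM with the FCN3 virus. Its log2 fold change was 0.87 (adjusted p = 0.0964 in edgeR, blocked 6.29e-04). SLC3A1, the heavy chain of a different transporter, was at 0.47 (adjusted p = 0.236, 0.0101 with the block). The largest negative values were those of SLC16A10, an aromatic amino acid transporter, SLC7A7 and SLC7A2, a cationic amino acid transporter of the family of SLC7A1. SLC16A10 stood at 0.576 and 0.538 CPM with EV and at 0.324 and 0.201 CPM with the FCN3 virus. It had only 4 to 21 expected counts a library (log2 fold change -1.01, adjusted p = 0.274 in edgeR, blocked 0.0967). SLC7A2 was at -0.61 (adjusted p = 0.235 in edgeR, blocked 9.89e-05). SLC7A1 and SLC7A2 thus differed in sign.

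Carriers inside the cell were examined in the same way. Of 20 listed lysosomal and mitochondrial carriers 16 were tested. None passed an FDR of 0.01 in edgeR without the block, and DESeq2 called 0. An unadjusted p under 0.05 in edgeR was reached by 2 higher and 2 lower genes (all genes, 13.6% and 11.6%). With the block 2 rose and 4 fell, against 19.1% and 17.1% of all genes, and the median of the log2 fold changes without the block was 0.025. Those that rose with the block were SLC38A7 (0.44, adjusted p = 5.79e-05) and SLC38A9 (0.35, adjusted p = 0.00109), both lysosomal members of the SLC38 family. PQLC2, a lysosomal exporter of cationic amino acids, was at 0.17 (adjusted p = 0.223 with the block). The largest decreases in the fit with the block were those of the mitochondrial aspartate-glutamate carrier SLC25A13 (-0.39, adjusted p = 5.63e-07), the glutamate carrier SLC25A22 (-0.34, adjusted p = 2.13e-05) and the serine carrier SFXN1 (-0.30, adjusted p = 1.64e-05), all from edgeR. The groups overlapped in SFXN1, whose adjusted p was 0.291 without the block.

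Because SLC7A11 is shared with NRF2, 22 NRF2 targets were set beside it. None passed in edgeR at an FDR of 0.01 without the block, and 7 higher and 3 lower genes reached an unadjusted p under 0.05 (all genes, 13.6% and 11.6%). DESeq2 called 6, of which 3 were higher and 3 lower (all genes, 4.43% and 3.43%). With the block 11 rose and 6 fell in edgeR (all genes, 19.1% and 17.1%), and the list's median without the block was 0.17 on the log2 scale. The largest increases were those of HMOX1, heme oxygenase (0.72, adjusted p = 0.151 in edgeR, blocked 1.64e-15), OSGIN1 (0.59, adjusted p = 0.0413, 4.37e-13 with the block) and ME1, malic enzyme (0.48, adjusted p = 0.0279, 1.27e-10 with the block). The largest decreases were those of the aldo-keto reductases AKR1C2 (-0.65, adjusted p = 0.0626, 5.02e-15 with the block) and AKR1C3 (-0.39, adjusted p = 0.0665, 3.98e-09 with the block) and of TKT, transketolase (-0.48, adjusted p = 0.0522, 9.83e-12 with the block), all from edgeR. SLC7A11, at 0.67, lay near the top of the range of this list, which ran from -0.65 to 0.72. AKR1C2 and AKR1C3 have close paralogs among which RSEM divides reads, so their values are uncertain.

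The genes whose values over the 4 libraries were most like those of SLC6A9, the member with the largest change, were sought among the 3465 tested genes of similar average level. By Euclidean distance between log2 CPM values centred on each gene's mean, the closest were AKNA (distance 0.174), PXDC1 (0.193) and ATF7IP2 (0.197). AKNA stood at 9.96 and 10.6 CPM with EV and at 28.6 and 34.1 CPM with the FCN3 virus. With 4 libraries such likeness is a description only.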

How the data were processed

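Total RNA of A549 cells was sequenced by the authors as stranded mRNA libraries with paired-end reads. After trimming, the authors used STAR 2.6.1d (version per the labels) for alignment to hg19 and RSEM for abundance, with RefSeq transcript identifiers in the deposited tables, and whether strand was used in counting is not given in the sources used here. The deposited expected counts per gene are estimates that need not be whole, the deposited TPM values are normalised by RSEM for length and depth, and the deposited FPKM values were not used. The transcript length is in bases.

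After rounding, expected counts were fitted in R 4.3.3 with edgeR 4.0.16 (TMM, filterByExpr, quasi-likelihood test, Benjamini-Hochberg adjustment over 14099 tested genes, FDR threshold 0.01), fitted on the whole table. The standard error (SE) was taken as the size of the log2 fold change over the root of F. The labels give both groups the replicate numbers 1 and 2. Over the 8310 genes whose average log2 CPM exceeded 4, the difference between replicates 1 and 2 of EV correlated with that of FCN3 (Pearson's r = 0.806, across genes, which are not independent replicates), so the fit with the number as a block is given beside the fit without it. The alternatives used DESeq2 1.42.0, limma 3.58.1 with voom or on log2(TPM + 1) and log2(TPM + 0.1), RLE factors, other filters, FCN3 left out, SLC7A5 summed with its copies, and each library left out. An effective length offset and a block in DESeq2 were chosen after seeing the data.

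The members and lists were chosen with earlier results of these data known. All members were named, and with them FCN3, ATF4, DDIT3, TRIB3, ASNS, CHAC1, the copies of SLC7A5, the partners of SLC3A2, the 3 largest tested changes in each direction in each list (fewer where fewer were negative), and the 3 genes closest in pattern to the member with the largest change. Other genes were named after their values were seen. Gene positions are from GENCODE on GRCh37, the build of hg19. Promoter windows are from RefSeq on GRCh38.p14 and were used for sequence only. Counts limit the precision of low genes: 3 counts were taken as the floor. The results for 2 genes are not reported here.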

Additional observations from a re-analysis of the deposited data

How the results depend on the processing

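The members' log2 fold changes kept their direction in every setting tried, except that of SLC43A1, which was 0.05 without EV replicate 2 and 0.21 without FCN3 replicate 1, in a range from -0.28 to 0.21 with 1 library left out. The sizes moved with single libraries, from -0.44 (without EV replicate 1) to -0.19 (without EV replicate 2) in SLC7A5. In SLC7A11 they ran from 0.42 (without FCN3 replicate 1) to 0.88 (without EV replicate 1). Those of SLC38A1 ran from 0.47 (without EV replicate 2) to 0.97 (without EV replicate 1). For SLC38A2 the range was 0.38 (without FCN3 replicate 1) to 0.71 (without EV replicate 1). The calls depended on the settings. With the replicate block, edgeR at an FDR of 0.01 called 5103 genes in all in place of 136, 8 members in place of 0, 26 other ATF4 program genes in place of 14, 5 other cell-surface transporters, 6 lysosomal and mitochondrial carriers and 17 NRF2 targets, the last 3 in place of 0. What the shared numbers stand for is not stated in the labels. DESeq2 called 1047 genes in all, 6 members, 1 other cell-surface transporter and 6 NRF2 targets, and with a replicate block (added after seeing the data) 2212 genes, 8 members, 25 other ATF4 program genes, 1 other cell-surface transporter, 2 carriers inside the cell and 13 NRF2 targets. Without a filter on low counts 1 member was called, SLC1A4 (adjusted p = 0.00947). An FDR of 0.05 in edgeR gave 1014 genes, 4 members, 1 other cell-surface transporter and 3 NRF2 targets. With each library left out in turn edgeR called 92 to 267 genes in all, the highest without EV replicate 2, 0 to 1 members (SLC1A4 without either EV library), 14 to 17 other ATF4 program genes, and 0 to 1 NRF2 targets (1 without EV replicate 2). The remaining settings left these counts within 1.5 times. A fit on 3 libraries leaves 1 group with a lone library, assumed to vary like the other group. The causes of these shifts were not tested. SLC43A1 and SLC6A9 had the fewest counts of the members.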
